A study of Homo sapiens with 6 samples.

Results

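Ribosomal protein pseudogenes are copies of the mRNAs for the proteins of the ribosome that lie elsewhere in the genome. They were examined in the total RNA of luciferase-labelled MDA-MB-231, a human breast cancer line of mesenchymal character, with RBMS3 depleted by hairpins. RBMS3 is an RNA-binding protein that prefers A- and U-rich sequence. The series holds 6 libraries. Of these, 2 are of the control hairpin (shCTRL, a scrambled sequence by the methods). The hairpins shRBMS3-B3 and shRBMS3-C3, both directed at RBMS3, have 2 libraries each. All cells carried a lentiviral pLKO.1 hairpin vector, were selected with puromycin and came from 1 cell line, so the groups differ only in the hairpin as far as the labels say. The members were the rows of the deposited table whose symbol is that of a cytosolic ribosomal protein gene followed by P and a number. The rule found 74 of the 15917 listed genes, which copy 44 of the 79 cytosolic ribosomal protein genes. All 79 of those parent genes are listed as well.

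The table holds 1 comparison of knockdown with control cells and no value of a single library. Each gene therefore has a mean normalized count over the libraries (the level), a log2 fold change of knockdown over control (the difference), its standard error (SE) and a p-value, and the values of each library cannot be shown. By the description of the experiment, knockdown cells in 2 biological replicates were compared with control cells in 2, which is fewer than the libraries of both hairpins. Neither that description nor the table says which libraries or which hairpin entered, and their depth is not given in the sources used here. In the table, only genes with a mean count of at least 26.7 are listed. RBMS3 itself was listed at a log2 fold change of -2.37 ± 0.28 (SE, adjusted p = 6.18e-14, DESeq2 Wald test with Benjamini-Hochberg adjustment), or 19.3% of the control level. Of the markers of this line, VIM, CD44, CAV1 and EGFR were listed, ESR1 and PGR were not, and CDH1 was listed at a mean normalized count of 31.6.

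The proteins of the ribosome are needed in nearly equal numbers, and the mRNAs for them are among the most abundant in a growing cell. Abundant mRNAs are now and then copied into DNA by the reverse transcriptase of LINE-1 elements and inserted at a new place. Such a processed pseudogene has no introns, often keeps a stretch of A at its 3′ end, and usually brings no promoter of its own, so that its transcription depends on where it has landed. Ribosomal protein genes have left more of these copies in the human genome than any other functional family. A young copy is nearly identical to its parent mRNA, and short reads from one can be assigned to the other. Salmon, which the submitters' processing notes name, shares such reads between transcripts by a statistical estimate.

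GENCODE release 44 on GRCh38 holds 73 of the 74 gene identifiers. Of these, 64 are annotated as processed pseudogenes, 8 as transcribed processed pseudogenes and 1, RPL32P3, as a transcribed unprocessed pseudogene. The exception is RPSAP58. RefSeq gives that name as a synonym of RPSA2, a protein-coding gene at chr19:23758496-23871188 (GRCh38.p14), so this member is a pseudogene by its older name only. The identifier listed as RPL23AP79 belongs to CENPBD2P in GENCODE 44, and 1 of its annotated transcripts, of 469 bases, holds an RPL23A copy. The exons of that gene cover 9728 bases, so the level and log2 fold change listed for RPL23AP79 may be those of more than the copy. The copies are spread over 18 chromosomes, and 69 of the 73 have a single exon. The coding sequence of the gene in the symbol was the best match among the ribosomal protein genes for 73 of 73. Identity to it ran from 81.4% to 100%, with a median of 94.0%, and 61 of the copies cover at least 95% of it. An uninterrupted reading frame as long as the parent's was found in 16, and 38 have no frame longer than 50% of it.

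Sequences from hg38 show how far a read can tell a copy from its parent. In each pair below the parent's line gives bases 31 to 150 of its coding sequence and the copy's line the bases aligned to them, 5′ to 3′, with capitals where the 2 differ or where one has bases that the other lacks. The first 3 pairs are copies of high level. They are RPL23AP2 (chr19:15611686-15611802, plus strand), RPL9P9 (chr15:82372767-82372886, minus strand) and RPS4XP22 (chr19:9683925-9684043, minus strand).
RPL23A: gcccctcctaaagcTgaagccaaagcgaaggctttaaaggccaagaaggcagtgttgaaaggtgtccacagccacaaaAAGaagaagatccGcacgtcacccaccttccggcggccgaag
RPL23AP2: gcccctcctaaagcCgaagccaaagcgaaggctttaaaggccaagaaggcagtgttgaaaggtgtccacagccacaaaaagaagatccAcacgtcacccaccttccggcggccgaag
RPL9: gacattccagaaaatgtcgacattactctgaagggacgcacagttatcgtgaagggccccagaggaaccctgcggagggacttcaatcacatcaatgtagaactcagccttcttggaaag
RPL9P9: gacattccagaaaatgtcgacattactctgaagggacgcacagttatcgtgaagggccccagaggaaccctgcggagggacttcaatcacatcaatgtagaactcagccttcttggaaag
RPS4X: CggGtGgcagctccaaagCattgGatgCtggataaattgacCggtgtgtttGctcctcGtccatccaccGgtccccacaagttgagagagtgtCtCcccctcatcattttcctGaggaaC
RPS4XP22: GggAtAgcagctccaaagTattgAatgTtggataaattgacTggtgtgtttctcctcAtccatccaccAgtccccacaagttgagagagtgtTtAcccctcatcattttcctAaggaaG
RPL9P9 is identical to RPL9 in this window, RPL23AP2 differs from RPL23A at 2 bases with 3 more missing, and RPS4XP22 differs from RPS4X at 13 bases with 1 missing.

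The next pairs are the 2 members with the lowest log2 fold changes among those with an unadjusted p under 0.05, namely RPL14P1 (chr12:62965355-62965474, plus strand) and RPL32P3 (2 exons within chr3:129396218-129397109, minus strand).
RPL14: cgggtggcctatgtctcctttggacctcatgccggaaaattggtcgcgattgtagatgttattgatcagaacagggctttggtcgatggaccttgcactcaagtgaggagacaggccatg
RPL14P1: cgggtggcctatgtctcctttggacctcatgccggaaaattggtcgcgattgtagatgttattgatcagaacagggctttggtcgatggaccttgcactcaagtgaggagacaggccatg
RPL32: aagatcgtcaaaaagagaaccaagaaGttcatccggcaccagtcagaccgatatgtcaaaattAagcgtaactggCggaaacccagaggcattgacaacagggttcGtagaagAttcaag
RPL32P3: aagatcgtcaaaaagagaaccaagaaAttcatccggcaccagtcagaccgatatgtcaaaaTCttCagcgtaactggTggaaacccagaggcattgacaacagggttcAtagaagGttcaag
RPL14P1 has no difference from RPL14 in this window, while RPL32P3 differs from RPL32 at 5 bases and carries 2 more bases.

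The last are 3 copies without any difference in the part shown, namely RPL21P119 (chr16:9156732-9156851, minus strand), whose SE was the widest of all members, and the whole coding sequences of the short RPL41 and RPL39 with the copies RPL41P2 (chr15:28315693-28315770, plus strand) and RPL39P3 (chr6:73373108-73373263, minus strand).
RPL21: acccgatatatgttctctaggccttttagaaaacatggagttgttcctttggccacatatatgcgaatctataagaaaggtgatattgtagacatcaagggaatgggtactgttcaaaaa
RPL21P119: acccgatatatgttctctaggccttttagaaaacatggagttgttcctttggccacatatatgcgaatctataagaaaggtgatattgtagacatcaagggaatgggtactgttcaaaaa
RPL41: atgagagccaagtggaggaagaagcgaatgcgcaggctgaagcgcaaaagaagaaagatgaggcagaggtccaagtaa
RPL41P2: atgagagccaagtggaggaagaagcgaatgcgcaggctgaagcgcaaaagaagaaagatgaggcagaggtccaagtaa
RPL39: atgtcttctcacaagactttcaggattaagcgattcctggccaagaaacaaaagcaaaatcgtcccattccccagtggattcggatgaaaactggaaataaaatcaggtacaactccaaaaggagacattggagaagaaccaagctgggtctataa
RPL39P3: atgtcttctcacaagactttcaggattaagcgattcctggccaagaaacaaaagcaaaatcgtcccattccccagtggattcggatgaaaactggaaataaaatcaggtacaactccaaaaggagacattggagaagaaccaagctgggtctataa

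The libraries were read in paired ends of 75 bases, so stretches of 75 bases were compared. In 44 of the 73 copies no stretch of this length is identical to one in the parent's annotated transcripts, in 15 fewer than 25% are, and in 14 at least 25% are. For RPL39P3 the share is 100%, for RPL9P9 85.1%, for RPL21P119 77.3% and for RPL6P27 62.9%. For RPS4XP22 it is 0. Values of the copies with a high share are uncertain, since they depend on how reads were divided between copy and parent.

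The levels of the members were spread over a wide range. The mean normalized count ran from 27.2 to 11899 with a median of 64.5, against 364 over all listed genes and 7988 over the parent genes. A count under 100 was found for 49 members (66.2%, against 24.6% of all listed genes), and 10 lay above the median of all genes. The 7 members with a count of 3000 or more held 86.6% of the summed count of all 74. RPL13AP5 (a copy of the large subunit gene RPL13A) was highest with 11899, followed by RPSAP58 with 11231, RPL23AP2 with 9174, RPS7P1 with 5199, RPL9P9 with 5009, RPL6P27 with 4835 and RPS4XP22 with 3526. RPL14P1 with 1009, RPL41P2 with 775 and RPL23AP79 with 515 completed the 10 highest. The table gives no error for a mean count, so neighbours in this order cannot be said to differ.

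Counts rise with transcript length, so copy and parent were set side by side per kb. The length was that of the best-matching annotated transcript for the copy and of the coding sequence for the parent. Some copies have exons beyond that transcript, which makes their value per kb higher than over all exons. RPL9P9 had 6948 per kb over all exons, RPLP0P2 21.6 rather than 91.2 and RPL23AP79 52.9 rather than 1098. Of 73 copies, 41 stood under 1% of their parent's level, the median was 0.776%, and 8 reached at least 10%. On this scale 3 copies stood above their parent. RPL9P9 had 8652 normalized counts per kb against 4289 for RPL9, RPL23AP2 had 19687 against 11461 for RPL23A, and RPL36AP45 had 1132 against 1111 for RPL36A. RPL13AP5 reached 19443 against 24554 for RPL13A, and RPS7P1 8887 against 10570 for RPS7. When the parent's whole canonical transcript was used as its length, RPL13AP5 and RPS7P1 stood above their parents as well and 5 copies did so in all. On that scale 35 copies stood under 1% of their parent's level, the median was 1.06%, and 18 reached at least 10%. Some canonical transcripts are far longer than the coding sequence, with 7573 bases against 294 for RPL37 and 7136 against 648 for RPL14. This lowers the parent's value per kb, and RPL14P1 stood at 0.083 of its parent on the first scale and 0.913 on the second. Of the copies above their parent, RPL9P9, RPL13AP5, RPS7P1 and RPL23AP2 share 85.1%, 59.7%, 50.9% and 33.2% of their 75-base stretches with it. Their levels therefore depend on how reads were divided between copy and parent. RPL36AP45 shares 0%. The level of RPL36A is uncertain all the same. A copy outside the members, listed as RP11-466H18.1, shares 100% of its 75-base stretches with RPL36A. Its mean normalized count was 3378, against 357 for RPL36A, so the parent's level depends on how those reads were divided.

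**Figure D1:**
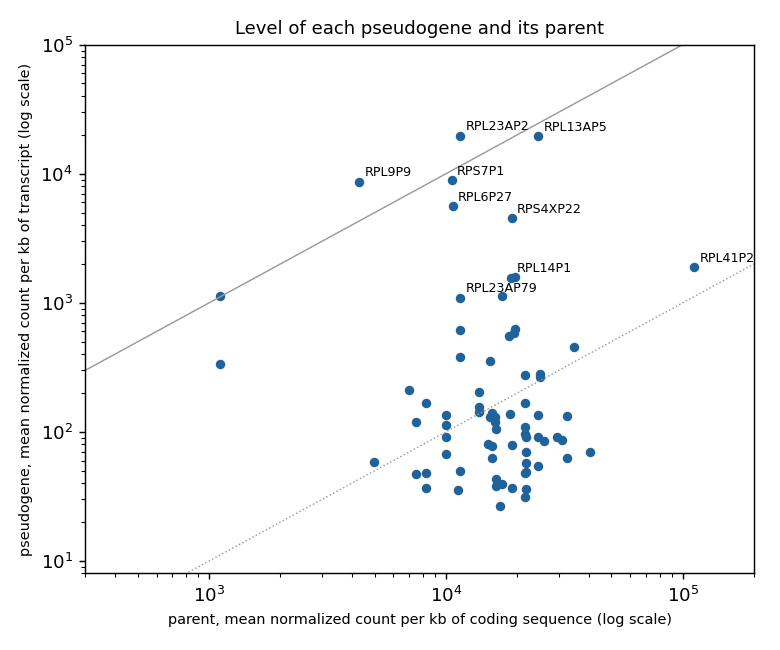
Each point is 1 of 73 pseudogenes, placed by the mean normalized count per kb of its parent's coding sequence (x axis, log scale) and of its own transcript (y axis, log scale). The solid line marks equal levels and the dotted line 1% of the parent, and 41 points lie below the dotted line while RPL9P9, RPL23AP2 and RPL36AP45 lie on or above the solid one.

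The comparison asks whether transcripts of these copies changed in abundance when RBMS3 was depleted. None of the 74 members had an adjusted p under 0.05 (Benjamini-Hochberg over all 15917 genes of the DESeq2 Wald test), while 6.19% of all listed genes did (3.71% higher and 2.49% lower in knockdown cells). At an unadjusted p under 0.05 there were 3 members (4.05%), against 21.2% of all listed genes. The median log2 fold change of the members was -0.04, with 35 above 0 and 39 below, and that of all listed genes was 0.00. The middle of the members was narrower than that of all genes, with quartiles of -0.19 and 0.23 against -0.30 and 0.29. A log2 fold change smaller than 0.5 in either direction was listed for 61 members.

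Level has to be kept in view beside these counts. Among genes with a mean count under 100, 2.45% of all listed genes had an adjusted p under 0.05 and 11.1% an unadjusted p under 0.05, and of the 49 members of that level 0 and 1 did. From 100 to 3000, the shares of all genes were 7.38% and 24.6%, and 0 and 2 of 18 members passed. At 3000 or more, they were 7.78% and 22.8%, and 0 and 0 of 7 members passed. With the SE of each member, the smallest change that would have been called had a median of 1.26 on the log2 scale, or 2.39-fold, and for RPL23AP2, the most precise, it was 0.46, or 1.38-fold. The 95% interval lay wholly within a 2-fold change in either direction for 33 members, including all 7 of the highest level. For the other 41 a 2-fold change was not excluded by the interval.

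**Figure D2:**
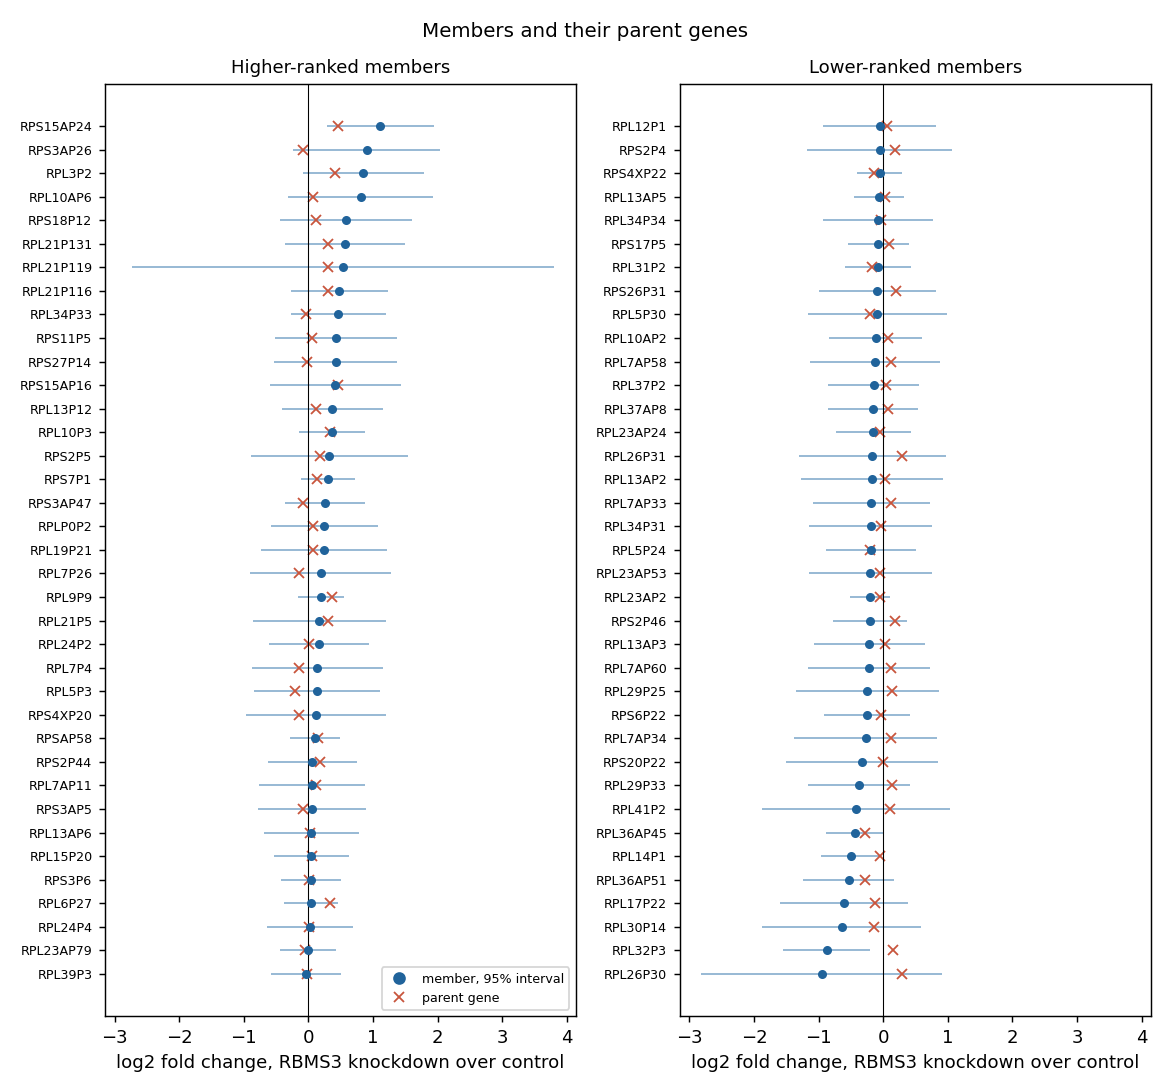
The points are the log2 fold changes of the 74 members (RPSAP58 included), knockdown over control, in descending order over both panels, with 95% intervals from the deposited SE, and the crosses are the parent genes. Only RPS15AP24, RPL14P1 and RPL32P3 have intervals that leave out 0, and 72 of the 74 crosses lie inside the interval of the member.

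The 3 members with an unadjusted p under 0.05 differed widely in level. RPS15AP24 (chr8:30117384-30117779, minus strand, inside LEPROTL1 on the opposite strand) was listed at 1.11 ± 0.42 (SE, adjusted p = 0.0902, mean count 51.2). Its parent RPS15A, which codes for a small subunit protein, stood at 0.46 ± 0.19. RPL32P3 was listed at -0.87 ± 0.34 (adjusted p = 0.101, mean count 153), with RPL32 at 0.16 ± 0.19. RPL32P3 lies inside the long noncoding RNA gene ENSG00000290993 on the same strand and overlaps an exon of it. That gene is not listed, and reads from the shared part can come from either. RPL14P1 was listed at -0.50 ± 0.23 (adjusted p = 0.18, mean count 1009), with RPL14 at -0.04 ± 0.20. None of these 3 passed the adjustment.

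At the upper end of the list, RPS15AP24 was followed by RPS3AP26 with 0.90 ± 0.58, RPL3P2 with 0.85 ± 0.48, RPL10AP6 with 0.81 ± 0.57 and RPS18P12 with 0.58 ± 0.52. The highest mean count among these 5 was 51.2. At the lower end, RPL26P30 stood at -0.95 ± 0.95, below RPL32P3, and above it came RPL30P14 with -0.65 ± 0.63, RPL17P22 with -0.60 ± 0.50 and RPL36AP51 with -0.53 ± 0.36. The parents of the upper 5 stood at 0.46 (RPS15A), -0.08 (RPS3A), 0.42 (RPL3), 0.07 (RPL10A) and 0.11 (RPS18). Those of the lower 5 stood at 0.29 (RPL26), 0.16 (RPL32), -0.14 (RPL30), -0.13 (RPL17) and -0.28 (RPL36A).

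The copies of high level had small differences and small errors. RPL13AP5 was listed at -0.07 ± 0.20, RPSAP58 at 0.11 ± 0.20, RPL23AP2 at -0.20 ± 0.16, RPS7P1 at 0.30 ± 0.21, RPL9P9 at 0.19 ± 0.18, RPL6P27 at 0.04 ± 0.21 and RPS4XP22 at -0.06 ± 0.18. The parents of these 7 stood at 0.03 (RPL13A), 0.15 (RPSA), -0.05 (RPL23A), 0.14 (RPS7), 0.36 (RPL9), 0.33 (RPL6) and -0.15 (RPS4X). All 7 parents lay inside the 95% interval of the copy. RPL41P2 stood at -0.43 ± 0.74 and RPL23AP79 at -0.01 ± 0.22.

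The members were also read by the subunit their parents build. The 53 copies of large subunit genes had a median log2 fold change of -0.08, with 21 above 0. The 21 copies of small subunit genes had a median of 0.11, with 14 above 0. No copy in either class had an adjusted p under 0.05. The parent genes of both subunits had close medians, 0.07 over 47 large subunit genes and 0.06 over 32 small subunit genes. Of the 79 parent genes, 55 lay above 0 and 1 passed the adjusted threshold, RPS15 with 0.62 ± 0.19 (adjusted p = 0.0283), which has no copy among the members. Over all listed genes, 6.19% passed it.

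Several parents have more than 1 listed copy. One copy each is listed for 28 parents, 2 for 8, 3 for 3, 4 for 4 (RPL13A, RPL21, RPL23A and RPS2) and 5 for RPL7A. The 5 copies of RPL7A ran from -0.27 (RPL7AP34) to 0.06 (RPL7AP11), and RPL7A stood at 0.12 ± 0.19. The 4 copies of RPL21 all lay above 0, from 0.17 (RPL21P5) to 0.57 (RPL21P131), beside 0.31 ± 0.21 for RPL21. The 4 of RPL23A all lay below 0, from -0.20 (RPL23AP2) to -0.01 (RPL23AP79), beside -0.05 ± 0.17 for RPL23A. The 4 of RPL13A ran from -0.21 (RPL13AP3) to 0.05 (RPL13AP6), and those of RPS2 from -0.21 (RPS2P46) to 0.32 (RPS2P5). Within each of these families the spread was smaller than the SE of its least precise copy. Copies of 1 parent share sequence and can share reads, so they are not separate measurements of the family.

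Over all members, the copy's log2 fold change minus the parent's had a median of -0.05 and ran from -1.24 (RPL26P30) to 0.98 (RPS3AP26). Copy and parent had the same sign in 44 of 74. Across these genes the log2 fold changes of copy and parent had a Pearson correlation of 0.35 and a Spearman correlation of 0.27, over 74 points that share libraries, reads and in part parents. The 95% interval of the difference between copy and parent left out 0 in 1 case, RPL32P3, at 2.63 combined SEs, where both values are taken as independent. The size of the difference from the parent was close in copies that share no 75-base stretch with it (median 0.22) and in those that share at least 25% (0.20). These 2 groups differed in median count (52.0 against 511) and in median SE (0.47 against 0.28). The 2 medians are therefore not like for like, and an effect of read sharing was not tested.

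Most members were as precise as other genes of their level. The SE of a member was divided by the median SE of the genes nearest to it in mean count, and the ratio had a median of 0.96. For 70 members it lay between 0.86 and 1.24. The 4 others were RPL21P119 (SE 1.67, ratio 3.73), RPL41P2 (SE 0.74, ratio 3.54), RPL26P30 (SE 0.95, ratio 3.08) and RPL29P33 (SE 0.40, ratio 1.63). A ratio over 1.5 was found in 5.41% of the members and 2.98% of all listed genes. RPL21P119 and RPL41P2 share 77.3% and 25.7% of their 75-base stretches with their parents, RPL29P33 14.5% and RPL26P30 none. Whether read sharing has a part in these wide errors was not tested.

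**Figure D3:**
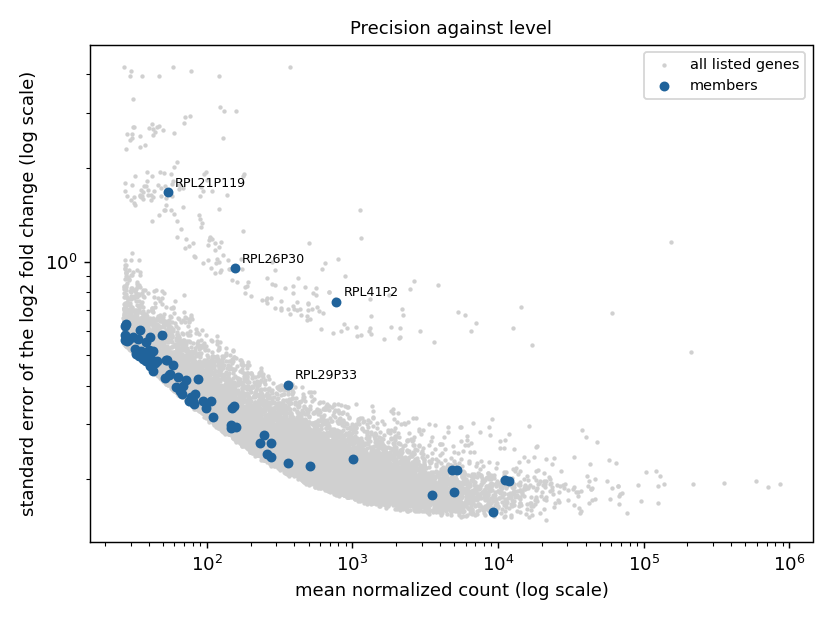
The SE of the log2 fold change (y axis, log scale) is plotted against the mean normalized count (x axis, log scale) for all 15917 listed genes in grey and the 74 members in blue. The 4 named members lie above the band of genes of their level, and the others lie within it.

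By position, 20 of the 73 copies overlap another annotated gene on the same strand, 26 overlap one on the opposite strand only and 27 overlap none. The median log2 fold changes of these classes were -0.14, -0.07 and 0.04. Reads from the unspliced transcript of a host gene on the same strand cannot be told from reads of the copy inside it. In 6 cases reported here the copy lies within an intron of a listed gene on its own strand. RPS3AP26 stood at 0.90 inside BAIAP2L1 at 0.04 ± 0.22, RPL10P3 at 0.37 inside ASTN2 at -0.31 ± 0.34, and RPS2P44 at 0.06 inside N4BP1 at -0.00 ± 0.20. RPS20P22 stood at -0.33 inside FGFR1 at -0.26 ± 0.18, and RPL7AP60 at -0.22 inside HECTD4 at 0.36 ± 0.17. RPL23AP24 stood at -0.15 inside ENSG00000228463, itself a transcribed processed pseudogene, at -1.09 ± 0.51. Copy and host had the same sign in 3 of the 6, and the copy minus the host had a median of 0.37. Each host has 1 value for the whole gene and none for its introns. Whether reads from the host's unspliced transcript entered the value of a copy was therefore not tested. None of the 6 hosts passed the adjusted threshold.

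RBMS3 is known to favour A- and U-rich RNA, so the base composition of the copies was set beside their differences. The A and U content of the copies ran from 38.7% to 59.8% with a median of 52.2%, close to 51.7% over the representative transcripts of 15829 listed genes. When those transcripts were divided into 5 equal classes by A and U content, the median log2 fold change of all genes was 0.25, 0.16, 0.04, -0.13 and -0.34 from the lowest class to the highest. Whether this order over all genes has to do with RBMS3 was not tested. The members in these classes numbered 5, 16, 23, 28 and 1, and their medians were -0.05, 0.05, -0.12, 0.01 and -0.17. A stretch made of A, G or T, then A or T, then ATA, then A or T, then A was searched on the transcript's own strand. The study used this stretch as the motif of RBMS3 and reported the motif in 3′ untranslated regions of transcripts lower in knockdown cells. Here whole transcripts were searched, so a match does not show binding by RBMS3. It was present in 19 of the 73 copies (26.0%). Of 2899 other listed genes' representative transcripts of 156 to 1318 bases, the range of lengths of the copies, 46.1% held it. Only this range was matched, and the copies had a median length of 588 bases. Longer transcripts offer more places for a match, so these shares are not like for like. Whether the copies lack the stretch for their length was not tested. The median log2 fold change was -0.09 in the 19 copies with a match and 0.01 in the 54 without. In 11 copies the genome has a run of at least 8 A within 30 bases of the annotated 3′ end, and the longest, of 18 A, belongs to RPL21P131.

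The table also lists 183 genes that carry names of the same kind in GENCODE 44 but another symbol in the table, mostly that of a genomic clone. They were looked at after the values of the members had been seen. Their median level (65.2 mean normalized counts) and the median identity to the parent's coding sequence (93.8%) were close to those of the members (64.5 and 94.0%). Their median log2 fold change was 0.24, with 136 of 183 above 0 (74.3%), against -0.04 and 47.3% for the members. With an adjusted p under 0.05 there was 1, RPL4P4 (listed as RP11-110C15.4, 1.06 ± 0.34), against 6.19% of all listed genes. At an unadjusted p under 0.05 there were 14 (7.65%), against 21.2% of all listed genes. Of the 14, 13 were higher in knockdown cells, and of all listed genes 1816 of 3369 were. A mean count under 100 was found for 64.5% of these copies, against 24.6% of all listed genes. Among copies that share no 75-base stretch with the parent the medians were 0.23 in 95 of these genes and -0.11 in 44 members. Over the 5 classes of A and U content, from the lowest to the highest, these genes numbered 7, 43, 72, 53 and 8 and had medians of 0.46, 0.45, 0.23, 0.12 and 0.22. By subunit their medians were 0.24 over 119 copies of large subunit genes and 0.25 over 64 of small subunit genes, while those of the members were -0.08 and 0.11. Of 34 parents with copies in both sets, the median of the set under other symbols was higher in 23. The 9 copies of RPL13A under other symbols all lay above 0 (0.11 to 1.47), and the 17 of RPL7A had a median of 0.29. The 5 of RPL21, by contrast, had a median of 0.03, below the 0.51 of the 4 members. The 9 of RPL23A had a median of 0.05, with 5 above 0 and 4 below. The difference between the 2 sets was not put to a test, since both were chosen with values in view.

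**Figure D4:**
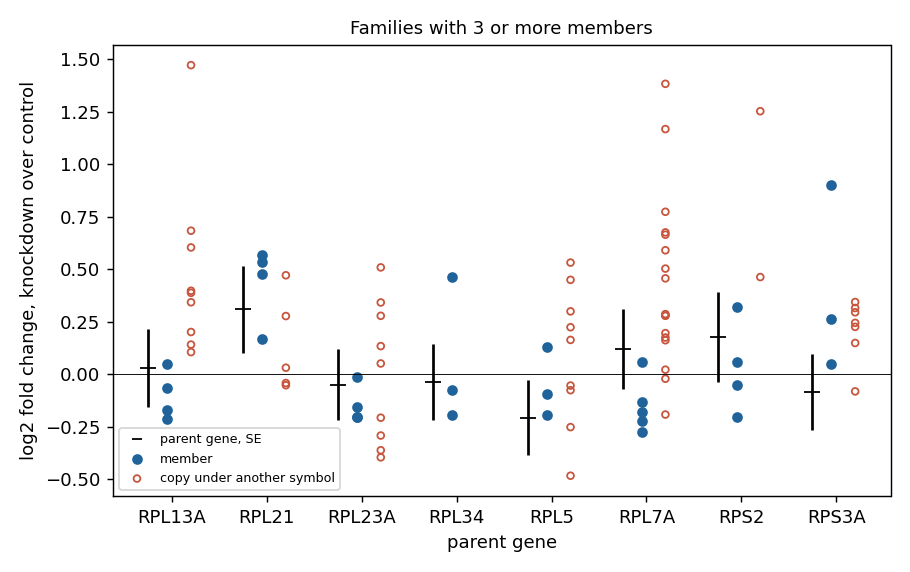
Each column is a parent gene with at least 3 members, with the log2 fold change (y axis, knockdown over control) of the parent and its SE in black, of the members in blue and of copies listed under another symbol as open circles. All 4 members of RPL23A lie below 0 and all 4 of RPL21 above it, and all 9 open circles of RPL13A lie above 0. The open circles of RPL23A and of RPL21 lie on both sides of 0.

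Pseudogenes of other families were read in the same way. The 46 listed retrocopies of other abundant mRNAs that carry such symbols (copies of genes for enzymes of glycolysis, cytoskeletal proteins, chaperones and others) had a median log2 fold change of -0.03, with 18 above 0, close to the -0.04 of the members, and 1 of them passed the adjusted threshold. Outside the members and the copies under other symbols, 760 listed genes are processed pseudogenes in GENCODE. They had a median of 0.12, and 16 of them passed, against 986 (6.19%) of all 15917 listed genes. The 46 retrocopies were not taken out of these 760, so a gene can be counted in both groups.

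**Figure D5:**
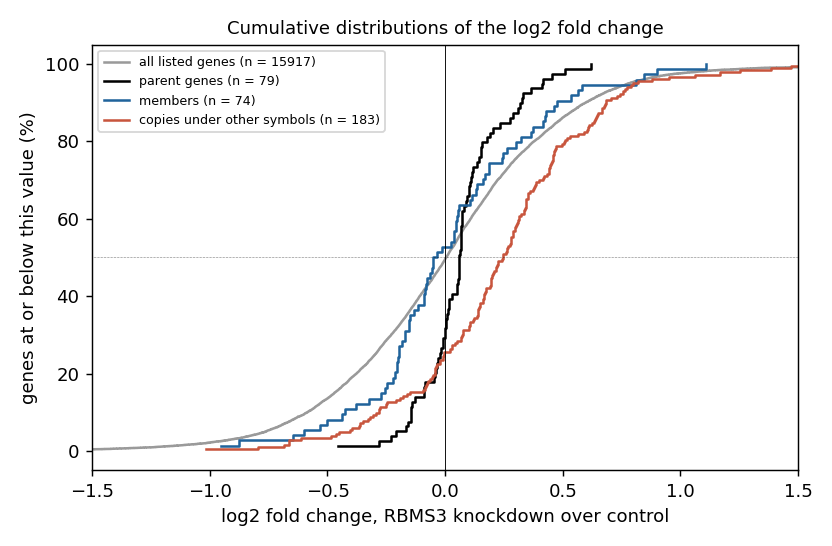
The curves give the share of genes (y axis, in %) at or below each log2 fold change, knockdown over control (x axis), for all listed genes, the 79 parent genes, the 74 members and the 183 copies under other symbols. The curve of the members crosses 50% at -0.04, near that of all genes, while the curve of the copies under other symbols crosses it at 0.24.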

How the data were processed

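Total RNA of MDA-MB-231 cells was made into stranded libraries with ribosomal cDNA depleted, and the labels name hg38, Salmon and DESeq2 without versions. The authors deposited 1 table of their own comparison of knockdown with control cells, and all values here rest on it. The signal deposited for a gene is its normalized count averaged over libraries. Deposited log2 fold changes have a standard error, and the score in the deposited table is the quotient of both (Wald statistic). The deposited p-value is two-sided and normal. The depth is unknown. No values per library were analysed, so precision is known only through the deposited standard errors, and replicates, said to be biological, could not be compared. A count test foreseen for values per library was not run.

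p-values were adjusted anew over all 15917 genes (Benjamini-Hochberg), since the deposited adjusted p corresponds to 15991 tests. Intervals of 95% are normal ones from the deposited SE. Copies were joined to GENCODE 44 by identifier and aligned locally to the canonical coding sequences with Biopython 1.88, under Python 3.11.15. The adjustment was tested on simulated data. The members and lists were chosen with earlier results of these data known. Genes were named by rule: the 10 members of highest mean count, the 5 largest and 5 smallest log2 fold changes, the ends of the largest families, and their parents and hosts. Other genes named for their standard error, unadjusted p, sequence or position were chosen after their values were seen. One host gene and 1 copy's sequence are not reported here.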

Additional observations from a re-analysis of the deposited data

How the results depend on the processing

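Of 19 alternatives, 15 left the value within the 95% binomial interval of its median or the count within 1.5 times. Not all of these 15 were open to change. A count of 0 cannot rise under a stricter threshold, in a subset with the same adjusted p or with a larger adjusted p such as the deposited one. The fold change of RBMS3 does not depend on the adjustment. The count of members called was 0 at an adjusted p under 0.05 or 0.01, with the deposited adjusted p and among the 10 members above the median count. It was 3 at an unadjusted p under 0.05 and 1 with the 183 copies under other symbols added, an alternative chosen after seeing the data. That addition also moved the median log2 fold change from -0.04 to 0.17 and the median of copy minus parent from -0.05 to 0.15; it changes the set of genes. The median over members outside any same-strand gene was 0.03, on the other side of 0. The comparison of copy with host could not be repeated above the median count, since no such copy lies above it. Fits with another normalization, without a low-count filter or without single replicates were not run, since the table used has no values per library. No paired analysis was possible because the columns carry no replicate number. The unknown depth and the wide errors at low counts limit what could be seen.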
